A study of Homo sapiens with 8 samples.

Results

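Binding sites of dnTCF1EWT and dnTCF1Emut were compared after 2 h of induction, to ask which sites each protein occupied in a ChIP-seq list where the other protein had none. The 2 peak lists held 5585 and 1883 peaks, and peaks with a GC content below 15% were left out, 4 from the dnTCF1EWT list and 393 from the dnTCF1Emut list. The remaining 5581 and 1490 peaks made up 7071 of the 23433 peaks in the 6 lists of the series. A peak was called shared if at least 1 bp of it lay within a peak of the other list, and otherwise wild-type only or mutant only. Each list also gives a peak score from MACS, which is minus 10 times the logarithm to base 10 of the P-value of the peak, so that a higher score stands for more reads over the background. Peaks with a score of 100 or more are called strong.

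TCF proteins bring β-catenin to Wnt target genes. All of them bind the Wnt Response Element (WRE) through an HMG box. The WRE reads CTTTG, then 2 bases that are each A or T, then C or G. Some isoforms, TCF1E among them, carry a further DNA binding domain, the C-clamp, which contacts a GC-rich Helper site (ACCGCC or GCCGCC). A short form of the Helper site (ACCG or GCCG) lies inside the longer one. In intestinal epithelium this pathway maintains the stem cells of the crypt, and it is active without a Wnt signal in most colon cancers.

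Both proteins were dominant negative forms of TCF1E with a FLAG tag, expressed from a doxycycline-inducible construct in DLD-1, an established colon cancer cell line with high Wnt signaling. dnTCF1EWT has an intact C-clamp, and dnTCF1Emut has amino acid substitutions that abolish DNA binding by the C-clamp. All cells were kept under blasticidin and zeocin selection in doxycycline-free serum, and the 2 h cells then received doxycycline for 2 h. Lists from 0 h, without doxycycline, and from 9 h of doxycycline were used as further measurements of both lines. Proteins were precipitated with anti-FLAG beads. Each protein was measured in its own clonal line, the endogenous TCFs were still present, and duplicates were pooled into 1 list per condition. The effect of the protein therefore cannot be told apart from that of the clone or the library, there is no spread between replicates, and no difference between the lists was tested. Intervals given below are 95% intervals that cover counting error only, with peaks taken as the units. The number of reads per library is unknown from the lists, and scores are not scaled for it.

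The strong peaks of the sets differed in the motifs that their sequences hold, and promoters of genes with a strong 2 h peak at the TSS are shown here as examples. The examples were not taken by rank of score. The sequences are RefSeq promoters of build GRCh38.p14 from 250 bp upstream to 50 bp downstream of the TSS, matched by gene, and are not the sequences of the peaks, whose build is hg19. Capitals mark matches to the WRE or the Helper site on either strand. ING4 (tumor suppressor of the inhibitor of growth family, chr12:6663070-6663369, minus strand), FKBP3 (a nuclear immunophilin, chr14:45134432-45134731, minus strand) and PANK2 (the first enzyme of coenzyme A synthesis, chr20:3889137-3889436, plus strand) had a wild-type only peak, SP5 (a transcription factor and Wnt target, chr2:170715087-170715386, plus strand) a shared peak, and IGFL2 (chr19:46147988-46148287, plus strand) a mutant only peak.
ING4: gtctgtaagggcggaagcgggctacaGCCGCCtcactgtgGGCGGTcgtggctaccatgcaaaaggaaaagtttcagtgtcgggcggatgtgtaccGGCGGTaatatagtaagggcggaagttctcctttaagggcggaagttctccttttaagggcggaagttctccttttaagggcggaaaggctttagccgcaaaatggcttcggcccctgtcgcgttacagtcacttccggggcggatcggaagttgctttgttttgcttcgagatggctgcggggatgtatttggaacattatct
FKBP3: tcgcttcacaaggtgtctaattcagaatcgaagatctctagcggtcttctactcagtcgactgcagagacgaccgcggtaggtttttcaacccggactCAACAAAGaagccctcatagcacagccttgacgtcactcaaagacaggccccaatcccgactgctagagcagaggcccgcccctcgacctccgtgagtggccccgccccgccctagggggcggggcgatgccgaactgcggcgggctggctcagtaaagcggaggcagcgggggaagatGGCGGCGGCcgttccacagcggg
PANK2: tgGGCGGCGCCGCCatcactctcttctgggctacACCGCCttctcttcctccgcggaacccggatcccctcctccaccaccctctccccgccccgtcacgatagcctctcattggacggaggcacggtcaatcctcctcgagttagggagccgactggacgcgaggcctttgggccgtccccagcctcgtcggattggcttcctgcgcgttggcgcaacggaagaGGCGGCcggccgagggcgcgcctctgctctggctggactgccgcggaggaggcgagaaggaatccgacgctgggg
SP5: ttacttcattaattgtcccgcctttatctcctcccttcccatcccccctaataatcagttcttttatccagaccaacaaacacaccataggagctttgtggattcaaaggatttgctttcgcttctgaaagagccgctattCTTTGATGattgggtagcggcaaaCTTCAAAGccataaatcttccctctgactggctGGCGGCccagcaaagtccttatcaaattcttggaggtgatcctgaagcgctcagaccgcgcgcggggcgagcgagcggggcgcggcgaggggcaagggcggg
IGFL2: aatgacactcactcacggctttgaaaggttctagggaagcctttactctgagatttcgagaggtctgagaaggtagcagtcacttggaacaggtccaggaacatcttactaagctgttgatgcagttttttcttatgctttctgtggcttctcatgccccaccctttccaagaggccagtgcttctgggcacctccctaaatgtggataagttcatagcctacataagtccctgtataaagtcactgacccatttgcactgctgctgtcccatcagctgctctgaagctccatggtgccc

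The ING4 window holds 3 Helper matches and no WRE, and its wild-type only peak, with a score of 477.36 and its center 48 bp upstream of the TSS, likewise has 3 Helper sites and no WRE. PANK2 has 4 Helper matches and no WRE in the window (peak score 117.57, 10 bp downstream of the TSS, 2 Helper sites), and FKBP3 has 2 Helper matches and 1 WRE (peak score 439.39, 221 bp upstream, 1 WRE and no Helper site in the peak). The SP5 window, shared by both proteins, has 2 WREs and 1 Helper match, and the SP5 peak of dnTCF1EWT has 3 WREs and 5 Helper sites. The IGFL2 window has neither motif, although the IGFL2 peak (score 123.55, 113 bp downstream) has 1 WRE. Of the 30 strong wild-type only peaks that HOMER annotates as promoter-TSS, 25 were matched to a RefSeq promoter, and 14 of those windows (56%) hold a Helper match and 3 (12%) a WRE. All windows shown for wild-type only peaks hold a Helper match, so they do not stand for the 25. The windows of FGGY and SLC7A8, with higher peak scores (703.51 and 613.87), hold neither a Helper match nor a WRE. Among all 35116 RefSeq promoters of this length, 41.6% hold a Helper match, 6.62% a WRE and 78.3% a short Helper match. The other sets have 6 matched genes with a shared promoter peak, 3 of them with a Helper match, and 1 with a mutant only peak, which has none.

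Most peaks at 2 h belonged to a single list. Of the dnTCF1EWT peaks 527, or 9.44% (8.70 to 10.2), were overlapped by a dnTCF1Emut peak, and of the dnTCF1Emut peaks 526, or 35.3% (32.9 to 37.8), by a dnTCF1EWT peak. This left 5054 wild-type only and 964 mutant only peaks. The overlap was higher among peaks of higher score. For dnTCF1EWT it was 1.60% (1.21 to 2.12) of 2933 peaks with scores from 50 to 60, 25.9% (21.6 to 30.7) of 352 peaks from 100 to 150, and 60.2% (50.1 to 69.6) of 93 peaks of 500 or more. For dnTCF1Emut it was 19.3% (15.5 to 23.8) of 342 peaks from 50 to 60 and 43.7% (38.0 to 49.6) of 277 peaks from 100 to 150. It reached 78.9% of 38 peaks from 300 to 500, and 11 of the 16 peaks of 500 or more were shared.

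**Figure D1:**
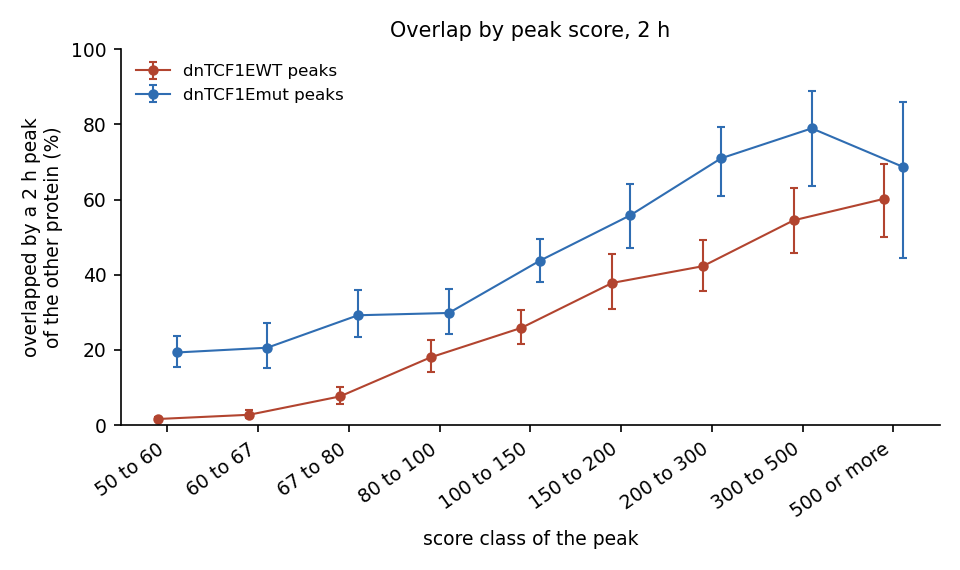
Percent of 2 h peaks overlapped by a peak of the other protein (vertical axis) in classes of peak score (horizontal axis), for dnTCF1EWT peaks (red) and dnTCF1Emut peaks (blue), with Wilson 95% intervals. The dnTCF1EWT share climbs from 1.60% in the lowest class to 60.2% in the highest, and the dnTCF1Emut share is above it in every class.

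Strong peaks of a single protein nevertheless remained. There were 568 strong wild-type only peaks and 253 strong mutant only peaks, beside 358 dnTCF1EWT and 300 dnTCF1Emut peaks that were strong and shared. At the score limit, the lowest strong peaks had scores of 100.08 (dnTCF1EWT) and 100.01 (dnTCF1Emut), and the highest below it 99.99 and 99.91. At the GC limit, the lowest values kept were 17.5% and 15.03%, and the highest left out 14.6% and 14.7%. Strong wild-type only peaks had a median score of 157, a median length of 422 bp and a median GC content of 47.0%. Strong mutant only peaks had a median score of 132, were longer (536 bp) and had a lower GC content (36.8%). Few of these peaks lay close to a peak of the other list. Of the wild-type only peaks, none had a dnTCF1Emut peak within 500 bp and 26 within 10 kb, and the median gap was 462752 bp. Among the mutant only peaks 2 had a dnTCF1EWT peak within 500 bp, near ZDHHC3 (298 bp) and DCBLD1 (449 bp), and 22 within 10 kb.

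**Figure D2:**
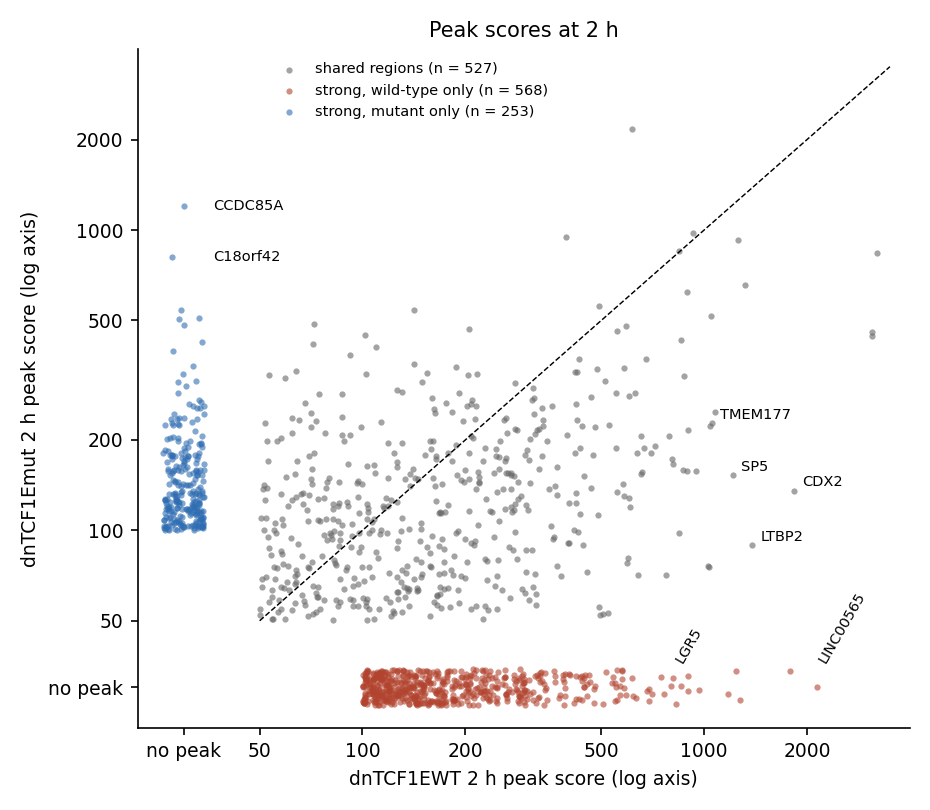
Peak scores of dnTCF1EWT (horizontal log axis) and dnTCF1Emut (vertical log axis) at 2 h for the 527 shared regions (grey), with the 568 strong wild-type only peaks (red) and 253 strong mutant only peaks (blue) placed at "no peak" on the axis of the other protein, spread at random across the strip. The dashed line marks equal scores, and the strongest single-protein peaks reach 2133.84 (LINC00565) and 1199.16 (CCDC85A).

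The highest wild-type only score was 2133.84, the fourth of the whole dnTCF1EWT list, in a CpG island 15028 bp downstream of the TSS of LINC00565, a long non-coding RNA (chr13:114616422-114617450, hg19). This peak has 12 short Helper sites but no WRE and no full Helper site. Next came a peak of 1780.78 at the transcription end of AMZ1, a metallopeptidase (chr7:2754825-2755413), with 1 Helper site. RPTOR, the scaffold of the mTORC1 kinase complex, had a peak of 1278.08 that lies in a DNA transposon and has 2 WREs and 1 Helper site. The fourth, of 1238.51, has 2 Helper sites and no WRE and lies in intron 2 of IGF1R, the receptor for insulin-like growth factor 1, although its nearest TSS is that of MIR4714. GADD45B, a stress-induced regulator of growth arrest, had a peak of 1176.77 (chr19:2517986-2518635) with 2 Helper sites and no WRE, 42187 bp downstream of its TSS and inside an intron of another transcript. None of these 5 regions had a dnTCF1Emut peak at 0, 2 or 9 h. At 9 h the dnTCF1EWT scores of the same regions were 985.79, 476.22, 235.15, 402.90 and 208.20, each below its 2 h score.

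LGR5 had the eleventh highest wild-type only peak. LGR5 is the R-spondin receptor that marks stem cells of the intestinal crypt. The peak (chr12:71834477-71835012) scored 809.13, lies in intron 1 with its center 931 bp downstream of the TSS, and has 1 WRE, 6 short Helper sites and 3 Helper sites. It scored 123.20 at 9 h for dnTCF1EWT and was in no dnTCF1Emut list. The other highest peaks were nearest to GZMB (969.43, a protease of cytotoxic lymphocytes), MIR3143 (898.52), ANKFY1 (896.57, an endosomal protein), SLC4A3 (854.25, an anion exchanger), MYL10 (824.88, a myosin light chain) and COL6A3 (801.91, a collagen chain). As a group, the 12 highest wild-type only peaks had a GC content of 41.7 to 62.2%. Of these, 7 have a WRE, 5 a Helper site and all 12 a short Helper site. All 12 were in the dnTCF1EWT 9 h list and none in a 0 h list or the dnTCF1Emut 9 h list.

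The highest mutant only peak scored 1199.16, the second of the dnTCF1Emut list. It lies in a LINE element far from any TSS (787514 bp from CCDC85A, chr2:57198238-57199306), has 4 WREs, no short Helper site and a GC content of 29.8%, and was also in the dnTCF1Emut 0 h list. A peak of 814.95 at the transcription end of C18orf42 (chr18:5142734-5143429) has neither WRE nor Helper site. WBP4, which encodes a spliceosome-associated protein, had a peak of 540.81 in intron 2 (chr13:41638399-41639791) with 1 WRE. The peaks nearest to CYP26A1 (510.43, the enzyme that degrades retinoic acid), ITGA9 (504.23, an integrin), ACVR2A (483.62, an activin receptor), SPAG9 (424.38, a scaffold of JNK signaling), EPHA4 (396.69, an ephrin receptor) and STK38 (353.54, a kinase) followed. UVSSA, a factor of transcription-coupled DNA repair, had a peak of 315.11 with 10 WREs. Peaks near ZNF675 (331.48, 5 WREs) and LOC388692 (312.34, 4 WREs) lie in MER11A, a long terminal repeat of an endogenous retrovirus. The 12 highest mutant only peaks had a GC content of 29.8 to 46.3%. Of these, 8 have a WRE and none a Helper site, 9 were in the dnTCF1Emut 9 h list, and 5 in the dnTCF1EWT 9 h list, with scores from 56.85 (SPAG9) to 291.67 (CYP26A1).

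The Helper site was found in 140 of the 568 strong wild-type only peaks, 24.6% (21.3 to 28.4), in 11.7% (8.80 to 15.5) of the strong shared dnTCF1EWT peaks, and in 9 of the 253 strong mutant only peaks, 3.56% (1.88 to 6.62). Per length this was 1.31 sites per kb against 0.0573 in mutant only peaks. No mutant only peak, strong or weak, had more than 1 Helper site (0 of 253 strong peaks, which allows a share of up to 1.19%), whereas 62 strong wild-type only peaks had 2 or more. The short Helper site followed the same order, with 81.7% (78.3 to 84.7), 67.6% (62.6 to 72.2) and 47.0% (41.0 to 53.2). The WRE did not. It was in 45.1% (41.0 to 49.2) of strong wild-type only and 43.9% (37.9 to 50.03) of strong mutant only peaks, and in 62.6% (57.4 to 67.4) of the strong shared peaks. The odds of a Helper site were 8.85 times as high (4.42 to 20.1) in wild-type only as in mutant only peaks, and those of a WRE 1.05 times (0.771 to 1.43). The near-equal WRE shares belong to strong peaks. Over all peaks, a WRE was in 12.1% of wild-type only and 36.8% of mutant only peaks, with an odds ratio of 0.236 (0.201 to 0.277), or 0.417 (0.347 to 0.501) over strata of GC content. Mutant only peaks were the longer ones, and per length the values were 0.682 and 1.13 WREs per kb. The wild-type only share over all peaks is lowered by Alu repeats, described below. They held 2705 of the 5054 wild-type only peaks, with a median score of 55.47, and 35 of these have a WRE. Outside Alu, 24.5% of wild-type only peaks have a WRE.

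GC content also differed between these sets. Odds ratios were therefore also pooled over strata of 5% GC content, so that only peaks of like GC content were compared. The Helper ratio was then 2.29 (0.981 to 5.36), an interval that includes 1, and the short Helper ratio, 5.01 (3.58 to 7.05) without strata, was 1.75 (1.17 to 2.63). From 35 to 40% GC, 6 of 70 strong wild-type only and 5 of 116 strong mutant only peaks had a Helper site. From 40 to 45% GC the counts were 16 of 140 and 1 of 45. Over all peaks the stratified ratios were 1.05 (0.680 to 1.63) for the Helper site and 0.706 (0.592 to 0.842) for the short Helper site, the latter in the opposite direction to strong peaks. These ratios count peaks with a site and are not matched for length. Over all peaks, the median length was 181 bp for wild-type only and 434 bp for mutant only peaks. Per kb and without strata, wild-type only peaks held more short Helper sites (5.47 against 1.25) and more Helper sites (0.596 against 0.0609). Between strong wild-type only and strong shared peaks, the Helper ratio fell from 2.46 (1.67 to 3.67) to 1.09 (0.712 to 1.67) over the strata, and the short Helper ratio from 2.14 (1.55 to 2.94) to 1.07 (0.762 to 1.504), so that no difference was resolved at like GC content. The strata gave a WRE ratio of 1.26 (0.847 to 1.87) between the single-protein sets. Against shared peaks, the WRE ratio stayed below 1, at 0.574 (0.428 to 0.771) for wild-type only and 0.469 (0.325 to 0.676) for mutant only peaks.

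**Figure D3:**
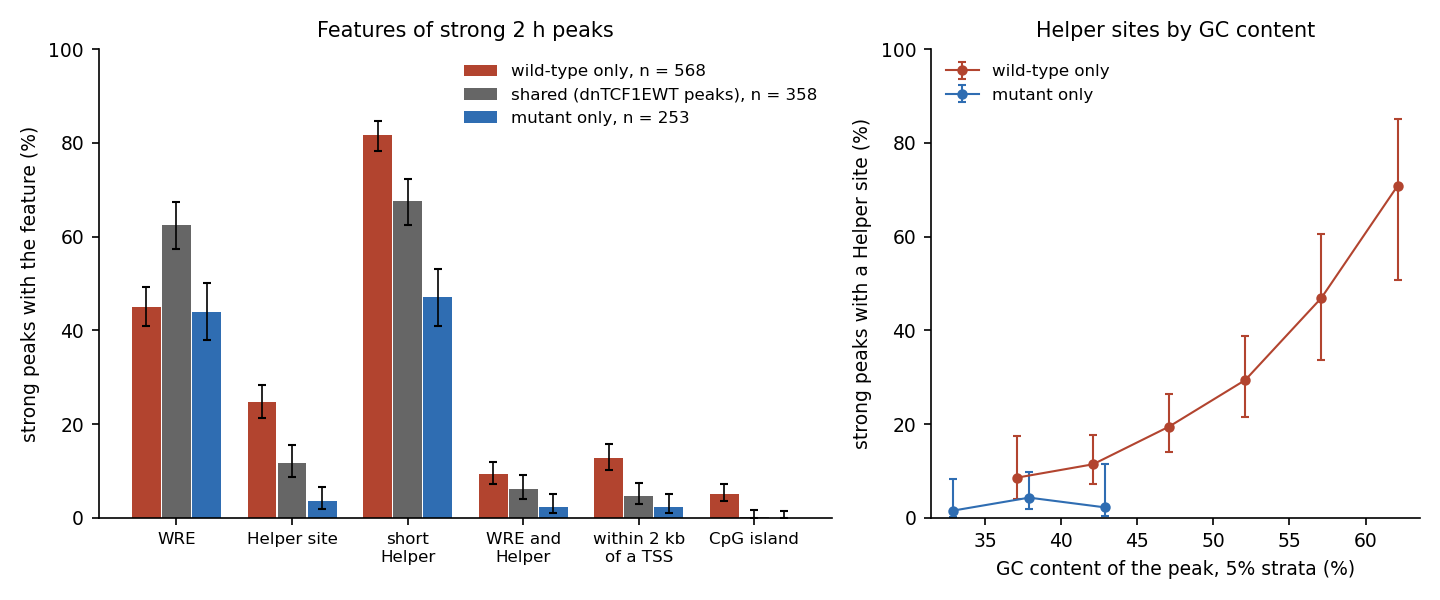
Left, percent of strong 2 h peaks (vertical axis) with each feature (horizontal axis) in the wild-type only (red, n = 568), shared (grey, dnTCF1EWT peaks, n = 358) and mutant only (blue, n = 253) sets, with Wilson 95% intervals. Right, percent with a Helper site by 5% strata of GC content, for strata with 20 or more peaks of that set, where wild-type only peaks rise to 70.8% at 60 to 65% GC and the mutant only strata drawn end at 45%.

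Many strong peaks had a single motif or none. Of the strong wild-type only peaks, 53 had a WRE and a Helper site, 203 a WRE without a Helper site, 87 a Helper site without a WRE, and 225 (39.6%) neither. The corresponding counts of strong mutant only peaks were 6, 105, 3 and 139 (54.9%). Neither a WRE nor even a short Helper site was found in 7.75% (5.82 to 10.2) of the wild-type only and 30.8% (25.5 to 36.8) of the mutant only peaks. The 8 strong wild-type only peaks with the most Helper sites held 9 to 12 of them. RHEB, the GTPase that activates mTORC1, had 12 in a peak of 405.42 in its 5′ UTR, and JHDM1D, a histone demethylase, had 9 in a peak of 387.24. ARHGAP29 had 11 in a peak of 224.14 in a CpG island. LOC100506585 had 9 in a peak of 536.32, in an intron of another transcript. The rest were peaks near FAM35B and FAM35B2 (12 each, scores 320.92 and 325.60, the same length of 863 bp) and 2 peaks near INTS4L2 (10 and 9, scores 678.51 and 568.89). These are near-identical copies, between which reads can be divided in ways the lists do not show, so the separate sites are uncertain. Only 1 of the 8 has a WRE.

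Strong wild-type only peaks also lay nearer to genes. Of them 72, or 12.7% (10.2 to 15.7), had their center within 2 kb of a TSS, against 4.75% (2.99 to 7.47) of strong shared dnTCF1EWT peaks and 6 strong mutant only peaks, 2.37% (1.09 to 5.08). The median distance to the TSS was 31239.5 bp for wild-type only, 53856.5 bp for shared and 53573 bp for mutant only peaks, and the share beyond 100 kb was 19.4% (16.3 to 22.8), 29.3% (24.9 to 34.2) and 37.5% (31.8 to 43.7). A CpG island was annotated at 29 strong wild-type only peaks and at none of the 253 mutant only peaks, which allows up to 1.19%. The odds ratio of lying within 2 kb was 5.97 (2.56 to 17.0) between wild-type only and mutant only peaks, and 2.05 (0.701 to 6.02) over GC strata, an interval that includes 1. Against shared peaks it was 2.91 (1.66 to 5.36), and 1.43 (0.779 to 2.62) over the strata, which also includes 1.

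The 8 highest of the 72 promoter peaks were LGR5, described above, FGGY (703.51, a carbohydrate kinase), INTS4L2 (678.51), SLC7A8 (613.87, an amino acid transporter), INTS4L1 (575.53), ING4 (477.36), FKBP3 (439.39) and RHEB (405.42). Of these, 6 have a Helper site and 4 a WRE. SLC7A8 has 1 WRE and no Helper site, and FGGY has 21 short Helper sites, 2 Helper sites and 1 WRE. INTS4L1 and INTS4L2, pseudogene copies of an Integrator subunit, have 8 and 10 Helper sites and no WRE. All 8 were in the dnTCF1EWT 9 h list, INTS4L2 and INTS4L1 with higher scores than at 2 h (930.90 and 869.37). The 6 strong mutant only peaks within 2 kb of a TSS included those near ANO4 (285.65, an ion channel relative), MIR128-1 (198.43), MIR10A (132.90), LOC100506025 (127.29) and IGFL2 (123.55). A WRE lies in 4 of these 6 peaks, and a Helper site in 2.

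Alu elements divided the sets mainly among weak peaks, and LINE elements among strong ones. Alu elements, short interspersed repeats of high GC content, held 2705 of the 5054 wild-type only peaks, 53.5% (52.1 to 54.9), but 22 of the 568 strong ones. They held 7 of the 964 mutant only peaks. The Alu share moved with the cell line in every list, at 53.3, 48.5 and 76.0% for dnTCF1EWT at 0, 2 and 9 h and 1.27, 0.478 and 1.13% for dnTCF1Emut, and was thus high before induction too. Outside Alu, 2349 wild-type only peaks remained, and 18.2% of dnTCF1EWT peaks were shared. Of these 2349 peaks, 24.5% have a WRE and 12.6% a Helper site. LINE elements held 12.6% (9.10 to 17.3) of strong mutant only and 5.81% (4.17 to 8.05) of strong wild-type only peaks, against 10.2% (8.41 to 12.2) and 8.57% (7.83 to 9.37) over all peaks. Simple repeats held 78 mutant only peaks, 8.09% (6.53 to 9.98), and 55 wild-type only peaks, 1.09% (0.837 to 1.41).

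MER11A stood out among the long terminal repeats. It held 34 mutant only peaks, of which 33 have a WRE and 31 have 2 or more. It also held 20 shared dnTCF1EWT peaks (18 with a WRE) and 17 wild-type only peaks (8 with a WRE). The shares were 3.53% (2.53 to 4.89) of mutant only and 3.795% (2.47 to 5.79) of shared peaks, with overlapping intervals. Of wild-type only peaks it held 0.336% (0.210 to 0.538). Among strong peaks the counts were 11 mutant only (4.35%, 2.44 to 7.62), 10 shared (2.79%, 1.52 to 5.06) and 1 wild-type only (0.176%). No MER11A peak of these sets lay in a 0 h list. The related MER11C held 1 mutant only peak, 0.104% (0.0183 to 0.585), and 21 wild-type only peaks, 0.416% (0.272 to 0.634), with overlapping intervals. Of the latter, 7 have a WRE. MER4E held 15 mutant only peaks (1.56%), 13 shared dnTCF1EWT peaks (2.47%) and 10 wild-type only peaks (0.198%). LTR14C held 10 of the 5054 wild-type only peaks and none of the 964 mutant only peaks, and a Helper site lies in 5 of the 10. The sets differ too much in size for these LTR14C counts to show a difference. Copies of a repeat are alike in sequence, so these counts are not of independent sites and depend on how reads were placed among them. These elements were chosen after their counts were seen.

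**Figure D4:**
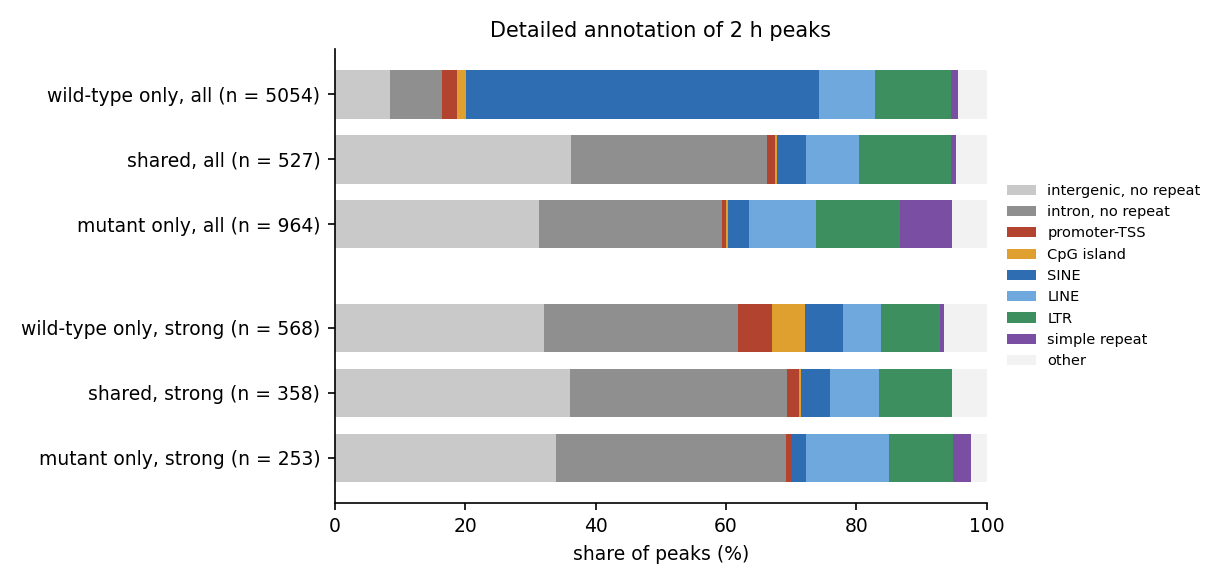
Share of peaks (horizontal axis, percent) in each class of HOMER's detailed annotation for the wild-type only, shared (dnTCF1EWT peaks) and mutant only sets, for all peaks (upper bars) and strong peaks (lower bars). SINE elements fill 54.2% of all wild-type only peaks but 5.81% of the strong ones, and promoter-TSS and CpG island classes are widest in the strong wild-type only bar.

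Genes were then followed by their role, each peak being given to the gene with the nearest TSS. Of 4745 genes nearest to a 2 h peak, 84.8% had a wild-type only and 17.6% a mutant only peak. A strong wild-type only peak was found for 11.2%, a strong shared peak for 8.49% and a strong mutant only peak for 5.14%. The share of all annotated genes that have a 2 h peak was not computed. How many genes of a list have a 2 h peak is therefore given without a background and is not a result about the list. Among 25 genes of Wnt feedback regulation, 18 had a 2 h peak, 7 of them a strong wild-type only, 4 a strong shared and 1 a strong mutant only peak. AXIN2, a scaffold of the β-catenin destruction complex that is itself induced by Wnt, had 3 strong wild-type only peaks. They scored 449.55 (127448 bp downstream of the TSS, 5 WREs, no Helper site), 326.54 (4234 bp downstream, 1 WRE) and 205.99 (483 bp downstream, 1 WRE, 14 short Helper and 3 Helper sites), and 230.89, 264.36 and 79.14 at 9 h. No dnTCF1Emut list had a peak at any of them. AXIN1, its constitutive relative, had a wild-type only peak of 201.34 with no WRE and no Helper site.

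NKD1 and NKD2, which inhibit Dishevelled, had wild-type only peaks of 143.45 (2 WREs) and 100.55 (no WRE), and TNFRSF19, a receptor of the TNF family found in stem cells, one of 155.09 at 368 bp downstream of its TSS (2 WREs). DKK1, a secreted inhibitor of the Wnt co-receptor, had strong peaks of every kind downstream of its TSS. Its shared peak scored 173.06 for dnTCF1EWT and 71.84 for dnTCF1Emut, its mutant only peak (chr10:54203295-54204127) 214.12, and its wild-type only peak (chr10:54212369-54212831) 173.52. All have a WRE and none a Helper site, and none was in a 9 h list. Of the strong shared peaks, SP5 (1212.83 for dnTCF1EWT and 152.92 for dnTCF1Emut) and RNF43 (133.84 and 72.31), a ubiquitin ligase that removes Frizzled receptors, were higher for dnTCF1EWT, and DKK3 was higher for dnTCF1Emut (77.27 and 127.83). The SP5 peak of dnTCF1EWT has 3 WREs, 18 short Helper and 5 Helper sites. The SP5 peak of dnTCF1Emut has 3 WREs, 8 short Helper and 2 Helper sites.

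Among 17 genes of the TCF/LEF factors and their partners, 8 had a 2 h peak and 4 a strong wild-type only peak. TCF7L2, the main TCF of intestinal epithelium, had a peak of 565.45 in its own gene (31461 bp downstream of the TSS, 2 short Helper sites, no WRE), TCF7L1 one of 205.94 without a WRE, and the corepressor genes TLE1 and TLE4 peaks of 147.72 and 294.76. TLE4 also had a strong mutant only peak of 271.64 with 1 WRE, 82071 bp upstream. CTNNB1, which encodes β-catenin, had a shared peak of 455.19 for dnTCF1EWT and 72.86 for dnTCF1Emut. Of 41 Wnt ligands and receptors, 15 had a 2 h peak. Strong wild-type only peaks lay near the receptor genes LRP5 (175.75, 1 WRE and 1 Helper site) and FZD7 (145.21), and a strong mutant only peak near FZD5 (114.74, no motif), where dnTCF1EWT had a peak of 109.04 at 9 h. The FZD7 peak is 686 bp from a shared peak of 418.49 for dnTCF1EWT and 181.14 for dnTCF1Emut.

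Of 20 crypt stem cell and patterning genes, 11 had a 2 h peak. TBX3, a T-box repressor, had a strong wild-type only peak of 224.40. JAG1, a Notch ligand, had a strong mutant only peak of 228.40 with 2 WREs, which was listed at 9 h for both proteins (95.78 for dnTCF1EWT and 164.42 for dnTCF1Emut). CDX2, the intestinal homeobox factor, had a shared peak of 1835.07 for dnTCF1EWT and 135.62 for dnTCF1Emut. Among 19 Wnt targets of proliferation 5 had a 2 h peak. GADD45B had a second strong wild-type only peak of 142.04 with 1 WRE and 3 Helper sites, CDKN2B, a cell cycle inhibitor, had a strong mutant only peak of 126.55 without a motif, and MYC a shared peak of 301.89 and 86.06.

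The BMP and TGF-β pathway had 31 listed genes, 17 with a 2 h peak, 5 with a strong wild-type only and 1 with a strong mutant only peak. TGIF1, a corepressor of SMADs, had both kinds. Its wild-type only peak scored 323.78 in a CpG island 820 bp downstream of the TSS, with 10 short Helper and 3 Helper sites and no WRE (chr18:3448173-3448684). Its mutant only peak scored 135.29, 3078 bp downstream, with no motif and 36.5% GC (chr18:3456518-3457182). At 9 h dnTCF1EWT had peaks at both positions, of 110.75 and 58.57. GREM1, a secreted BMP antagonist, had a wild-type only peak of 292.75, SMAD3, a TGF-β signal transducer, one of 151.79 (1 WRE), ID2, an inhibitor of differentiation, one of 110.57 (1 WRE) and the ligand gene BMP4 one of 107.49. Strong shared peaks were higher for dnTCF1EWT at SMAD7, the inhibitory SMAD (268.38 and 88.10). They were higher for dnTCF1Emut at BMP2 (68.82 and 117.21), BMP4 (71.03 and 160.58) and TGFBR2, the type II receptor (201.67 and 259.32).

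In the list of 27 early response genes to growth signals, 16 had a 2 h peak and 6 a strong wild-type only peak. These were SPRY1 (221.40), KLF2 (185.89), KLF4 (166.72), DUSP5 (127.81), IER3 (123.29) and DUSP6 (111.89), and none of these peaks has a Helper site. SPRY1, DUSP5 and DUSP6 encode inhibitors of growth signaling, and KLF2 and KLF4 transcription factors. AREG, an EGF receptor ligand, had a strong mutant only peak of 135.66, and further mutant only peaks of 81.58, 81.01 and 76.09. Its shared peaks were also higher for dnTCF1Emut (85.56 and 144.85, 87.07 and 285.54), at distances of 54873 and 112706 bp from the TSS. DUSP1, a MAP kinase phosphatase, had a mutant only peak of 126.15 without a motif. Of 22 genes of intestinal epithelial identity 11 had a 2 h peak. GATA6 (342.56), KRT8 (149.38) and MUC2 (161.05) had strong wild-type only peaks, and KLF5 strong mutant only peaks of 117.72 and 115.63. The MUC2 peak was also in the dnTCF1EWT 0 h list, at 133.84, so it was present without doxycycline. Of 9 genes chosen by the study for reporter assays 8 had a 2 h peak, and 5 had a strong wild-type only peak, with HIST1H4K (115.37, 1 Helper site) and ZBED5 (106.50, 4 Helper sites) at their promoters beside AXIN2, GADD45B and TGIF1. Since those genes were picked from these libraries, their count is not independent evidence. TMEM177 had a shared peak of 1053.21 for dnTCF1EWT and 228.26 for dnTCF1Emut.

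Over all lists, 34 strong wild-type only peaks belonged to 31 listed genes. Of these peaks 16 have a WRE, 9 a Helper site and 16 were in the dnTCF1EWT 9 h list, shares close to those of all strong wild-type only peaks. The 11 strong mutant only peaks belonged to 10 listed genes, and 4 have a WRE and none a Helper site. Altogether 23 genes were nearest to strong peaks of both kinds, with 25 wild-type only and 24 mutant only peaks among them. They are 23 of the 244 genes with a strong mutant only peak, while 533 of all 4745 genes (11.2%) had a strong wild-type only peak. Whether these shares differ was not tested. For the 23 genes the peaks were seldom close. ITGA9 had a wild-type only peak of 366.48 with 2 WREs, 52386 bp downstream of its TSS, and a mutant only peak of 504.23 at 156234 bp. STAMBPL1, a deubiquitinase, had peaks of 176.98 and 167.40 in neighbouring introns, 17404 and 23684 bp downstream, without a WRE or a Helper site in either. The let-7i gene MIRLET7I had a pair 2422 bp apart (107.62 with 2 WREs and 124.01 with none). The last 2 of these genes were chosen after their values were seen.

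In the 527 shared regions, dnTCF1EWT had the higher score in 335 and dnTCF1Emut in 192. On the log2 scale, the score for dnTCF1EWT divided by that for dnTCF1Emut had a median of 0.45, with quartiles of -0.29 and 1.19, and would move with the unknown depth of the libraries. A ratio above 1 on the log2 scale was found in 167 regions, with a median GC content of 42.7%. Of these regions, 127 have a short Helper site, 31 a Helper site and 109 a WRE. A ratio below -1 was found in 55, at 38.7% GC. Among these 55, 21 have a short Helper site, 3 a Helper site and 27 a WRE. The largest ratios were at LTBP2 (3.95, scores 1381.97 and 89.13), ERCC6L2 (3.77, 1031.58 and 75.45), CDX2 (3.76, 1835.07 and 135.62), NAA20 (3.75, 1026.52 and 76.30), NOSIP (3.45, 771.84 and 70.85), MYO10 (3.29, 521.51 and 53.26), IFFO2 (3.27, 507.37 and 52.66) and YAP1 (3.24, 494.43 and 52.41), the coactivator of Hippo signaling. Of these, CDX2, NAA20 and YAP1 have a Helper site, beside 46 of all 527 shared dnTCF1EWT peaks, 8.73% (6.61 to 11.4). The smallest were at SYBU (-2.75, 72.35 and 488.01), ASAP2 (-2.62, 53.24 and 327.88), CYP26B1 (-2.55, 71.43 and 417.60), RAB9BP1 (-2.44, 59.27 and 322.67) and NACA2 (-2.41, 63.90 and 338.57), all 5 without a Helper site. CYP26B1 degrades retinoic acid, as does CYP26A1, which is nearest to one of the highest mutant only peaks.

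The lists of the other times had no part in the split, but they come from the same cell lines as the 2 h lists. Of the strong wild-type only peaks, 275, or 48.4% (44.3 to 52.5), overlapped a peak of the dnTCF1EWT 9 h list, much like strong shared dnTCF1EWT peaks, at 49.2% (44.0 to 54.3). In the dnTCF1Emut 9 h list there were 5, or 0.880% (0.377 to 2.04), against 19.8% (16.03 to 24.3) of the shared peaks. The split chose shared peaks for a dnTCF1Emut peak at 2 h, and wild-type only peaks for lacking one. A difference in this direction is therefore partly built in and is not independent evidence. The list sizes differ, with 12996 dnTCF1EWT and 354 dnTCF1Emut peaks at 9 h. The 5 regions, named after their values were seen, were nearest to SOX1, RORA, PODXL, MAP2 and MIR4432, and scored 541.26, 387.29, 296.83, 227.97 and 137.19 at 2 h for dnTCF1EWT and 54.72 to 99.42 at 9 h for dnTCF1Emut. Strong wild-type only peaks with a Helper site were in the dnTCF1EWT 9 h list in 60% (51.7 to 67.7) of cases and those without in 44.6% (40.0 to 49.4). Their median 2 h scores were 204 and 152, and the part of the score in this difference was not tested.

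Strong mutant only peaks were found again less often than strong shared dnTCF1Emut peaks. Of the 253, 30, or 11.9% (8.43 to 16.4), were in the dnTCF1Emut 9 h list and 20, or 7.91% (5.18 to 11.9), in the dnTCF1EWT 9 h list, so that some sites listed for the mutant alone at 2 h were listed for the wild type later. The shared dnTCF1Emut peaks reached 28.0% (23.2 to 33.3) and 43.0% (37.5 to 48.7) in the same lists. They were chosen for a dnTCF1EWT peak at 2 h, so their higher share in the dnTCF1EWT 9 h list is partly built in. Their median 2 h score was 165, against 132 for strong mutant only peaks, and the part of the score was not tested. The dnTCF1Emut 9 h list holds 354 peaks, which limits how many 2 h peaks of any kind can recur in it. Before induction few strong sites were listed. The 0 h lists held 4 (dnTCF1EWT) and 2 (dnTCF1Emut) of the strong wild-type only peaks, and none (which allows up to 1.19%) and 4 of the strong mutant only peaks. The 4 wild-type only peaks in the dnTCF1EWT 0 h list, named after their values were seen, were nearest to MUC2, CTDP1, LOC100506388 and PPP2R3B, and none has a WRE or a Helper site.

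**Figure D5:**
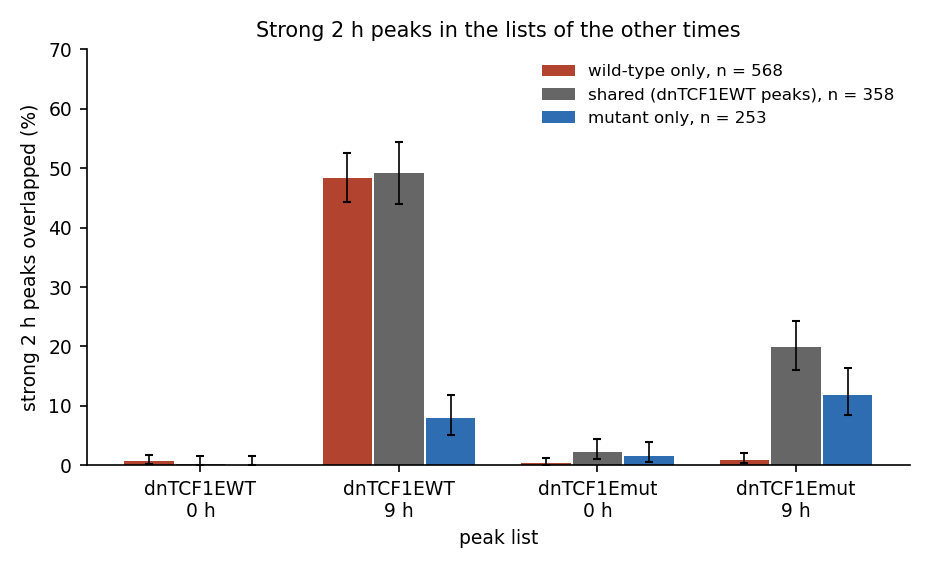
Percent of strong 2 h peaks (vertical axis) overlapped by a peak of the dnTCF1EWT and dnTCF1Emut lists at 0 and 9 h (horizontal axis), for wild-type only (red), shared (grey, dnTCF1EWT peaks) and mutant only (blue) peaks, with Wilson 95% intervals. Wild-type only and shared peaks reach 48.4 and 49.2% in the dnTCF1EWT 9 h list and 0.880 and 19.8% in the dnTCF1Emut 9 h list.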

How the data were processed

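ChIP-seq of FLAG-tagged dnTCF1EWT and dnTCF1Emut was compared at 2 h. The authors aligned reads to hg19 with Bowtie2, called peaks with MACS on pooled duplicates and annotated them with HOMER (versions 2.0.0, 1.3 and 3.16 in the submitters' processing notes). As deposited, each peak has a MACS score, a GC fraction, the distance from its center to the nearest TSS and counts of WRE, short Helper and Helper matches that the authors obtained with HOMER. The labels describe the lists as first replicates, while the methods describe pooled duplicates. Input libraries were not used here.

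Peaks with a GC fraction below 0.15 were left out, peaks were split by an overlap of at least 1 bp, and strong peaks had a score of 100 or more. Shares carry Wilson 95% intervals. Odds ratios carry conditional exact intervals, or Mantel-Haenszel intervals over 5% GC strata (SciPy 1.17.1, statsmodels 0.14.6). The overlap split and the stratified ratios were tested on simulated data, and the conditional exact intervals were not. With 1 list per condition no P-value was computed. The named peaks were the 12 highest of each single-protein set, the 8 highest within 2 kb of a TSS, the 8 with the most Helper sites, the shared regions with the largest and smallest score ratios, and the strong peaks of listed genes. The members and lists were chosen with earlier results of these data known. Alternatives were the overlap, the GC filter, the score limit, and leaving out peaks that overlap a 0 h peak or lie on chromosome Y. A few named peaks are not reported here.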

Additional observations from a re-analysis of the deposited data

How the results depend on the processing

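Of 82 alternatives to 12 results, 67 left a share within its counting interval, or a number of peaks within 1.5 times its value, and 15 did not. Requiring an overlap of 50% of both peaks lowered the shared part of the dnTCF1EWT list to 7.65% and of the dnTCF1Emut list to 28.7%. Among peaks with a score of 100 or more these were 38.7% and 54.2%. Without the GC filter 27.9% of dnTCF1Emut peaks were shared, and 29.9% of strong mutant only peaks had a WRE. With a score limit of 67, there were 1346 strong wild-type only and 549 strong mutant only peaks, and of the former 15.7% had a Helper site, 28.8% a WRE (against 39.2% of the latter), 8.92% lay within 2 kb of a TSS and 30.01% were in the dnTCF1EWT 9 h list. With the top 500 of each list instead, there were 258 wild-type only and 213 mutant only peaks, a smaller imbalance than 568 and 253, and of the former 32.2% had a Helper site and 62.8% were in the dnTCF1EWT 9 h list. Leaving out peaks that overlap a 0 h peak, or chromosome Y, moved none of the 12 results past these limits. No paired analysis was possible because each condition is 1 pooled list, and leaving out a replicate was not possible for the same reason. A region without a listed peak may still hold binding below the calling limit of that list, and the depth that bears on this limit is unknown here.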

Other observations

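The 393 dnTCF1Emut 2 h peaks with a GC content below 15% had a median score of 78.54 and a highest score of 487.54. Of these, 347 lie in simple or low complexity repeats, and 298 (75.8%) overlap a peak of the dnTCF1Emut 0 h list. Peaks of this kind made up 587 of 708 peaks (82.9%) of the dnTCF1Emut 0 h list and 124 of 354 (35.03%) of the 9 h list, against 0, 4 and 0 peaks of the dnTCF1EWT lists at 0, 2 and 9 h.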
